A study of Mus musculus with 4 samples.

Results

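Imprinted genes outside the *Igf2*/*H19* and *Dlk1*-*Dio3* loci, and other than *Igf2r*, were examined in mouse embryonic fibroblasts (MEFs) lacking MBD4. MBD4 is a methyl-CpG binding glycosylase that removes thymine from G/T mismatches. The genes were chosen by name, with earlier results of these data known, as 43 genes in 17 clusters or single loci. Among them are *Airn*, *Slc22a2* and *Slc22a3* of the *Igf2r* locus. Of these, 35 were found by gene name among the 23537 genes of the RNA table, and 29 of the 35 passed a filter on low counts and were tested together with the other genes, 15538 in all. *Asb4*, *Nap1l5*, *Kcnq1*, *Phlda2*, *Ascl2* and *Rasgrf1* were in the table but had too few reads to be tested. *Calcr*, *Kcnq1ot1*, *Slc22a2*, *Slc22a3*, *Magel2*, *Nnat*, *Peg13* and *Kcnk9* were not found there by name and were not analysed here.

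Total RNA came from subconfluent primary cultures of Mbd4-/- cells (MBD4 KO, 2 libraries) and of Mbd4+/+ cells (MBD4 WT, 2 libraries), grown from embryos at day 12.5 of gestation. The strain given for both genotypes is C57BL/6, no treatment is given, and ribosomal RNA was depleted before stranded library preparation. The samples of a genotype are described as independent, but the number of embryos or cultures behind them was not found in the sources, and the spread behind every p-value is that between these libraries, which may be technical. Both alleles of a gene contribute to 1 count and no strain difference separates them, so none of the values below belongs to a parental allele.

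An imprinted gene is transcribed mainly from the copy inherited from 1 parent. The choice follows a DNA methylation mark set in the egg or the sperm over an imprinting control region and copied at every cell division afterwards, with ZFP57 and its partner TRIM28 protecting the methylated copy in the early embryo. Many imprinted genes act on growth of the embryo and the placenta. Genes of a cluster can be read from opposite parental copies, and several, such as *Copg2*, *Commd1*, *Ube3a*, *Blcap* and *Trappc9*, are imprinted only in some tissues, often the brain.

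The DNA at the start of some of these genes is shown, in 3 stretches, because *Plagl1* and *Zim1* had the highest log2 fold changes of the tested genes, and *Peg3* and *Usp29* belong to the cluster of *Zim1*. The sequences are from RefSeq on GRCm38.p6, 5′ to 3′ on the strand of the gene. Capitals mark GCGGCA, which reads TGCCGC on the other strand and is the hexamer that ZFP57 binds when its CpG is methylated. *Plagl1* is shown for chr10:13090582-13090831 on the plus strand, *Zim1* for chr7:6696433-6696682 on the minus strand, and the stretch between the divergent starts of *Peg3* and *Usp29* for chr7:6730420-6730582 on the plus strand.
Plagl1: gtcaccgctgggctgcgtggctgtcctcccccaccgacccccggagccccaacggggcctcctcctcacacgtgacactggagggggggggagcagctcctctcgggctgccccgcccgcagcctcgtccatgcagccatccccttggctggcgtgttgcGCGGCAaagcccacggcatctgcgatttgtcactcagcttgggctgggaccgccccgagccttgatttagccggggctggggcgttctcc
Zim1: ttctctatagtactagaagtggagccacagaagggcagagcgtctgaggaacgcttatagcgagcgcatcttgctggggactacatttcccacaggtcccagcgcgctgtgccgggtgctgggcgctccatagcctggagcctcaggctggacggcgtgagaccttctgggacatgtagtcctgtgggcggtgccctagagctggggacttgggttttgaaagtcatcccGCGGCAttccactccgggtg
Peg3-Usp29: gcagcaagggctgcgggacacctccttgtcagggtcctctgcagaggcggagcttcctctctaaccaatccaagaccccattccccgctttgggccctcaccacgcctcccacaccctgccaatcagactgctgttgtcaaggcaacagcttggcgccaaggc

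The *Plagl1* and *Zim1* stretches each hold 1 copy of the hexamer, beside 19 and 14 CpGs in 250 bases. The 163 bases between *Peg3* and *Usp29* hold 5 CpGs and none of the hexamer. RefSeq windows of 300 bases (250 before and 50 after a start) were found for 33 of the 43 genes, but not for *Peg10* or *Sgce*. Some genes had several starts, and windows of 1 gene can overlap, as at *Mest*. TGCCGC, searched on both strands, was present in 13 of these 46 windows (28.3%) and in 3813 of all 32851 windows (11.6%). Counted by gene, 12 of the 33 had it in at least 1 window. CCATNTT, the core of the sites of YY1, a factor known to bind inside the *Peg3* locus, was present in 5 windows (10.9%), against 5281 of all windows (16.1%). Windows of the imprinted genes were also richer in CpG, with a median of 17 against 7. A letter match is a description of the sequence and not a binding site.

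As a check of the genotype, *Mbd4* had 373 and 302 reads in the KO replicates, against 663 and 630 in the WT replicates. The fold change was -0.99 on the log2 scale with a standard error (SE) of 0.11, at an adjusted p of 2.8e-06. This p, like all adjusted p-values below, is from the quasi-likelihood test of edgeR. The transcript was thus lowered and not lost. The 4 libraries held 39108275 to 47567835 counts. Levels are given as CPM, the reads of a gene relative to its library total after TMM scaling, and fold changes are KO over WT. For 1 value taken alone, an exact two-sided permutation test of 2 libraries against 2 cannot go below p = 0.333.

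Among the 29 tested imprinted genes, 6 were higher in KO cells at an adjusted p of 0.05, 13 were lower and 10 did not pass. The share called, 65.5%, lies beside 66.8% of all genes tested, so that being called does not set these genes apart. By direction, 34.3% of all genes were called higher and 32.5% lower. The sizes of the changes were modest: the median absolute log2 fold change was 0.29 in the imprinted genes and 0.47 over all genes, and 6 of 29 (20.7%) changed by a log2 fold of at least 1, against 22.6% of all genes. The signed median was -0.20, against 0.02 over all genes. With a stricter limit, 0.01 for the adjusted p and 2 for the size of the log2 fold change, *Peg10* and *Ppp1r9a* were lower and no gene was higher, beside 8.94% of all genes called under this limit, 3.15% lower and 5.79% higher. The highest of the set, *Plagl1*, lay just under that fold limit. Libraries of the 2 genotypes did not overlap for 25 of the 29 genes, against 82.8% of all genes.

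**Figure D1:**
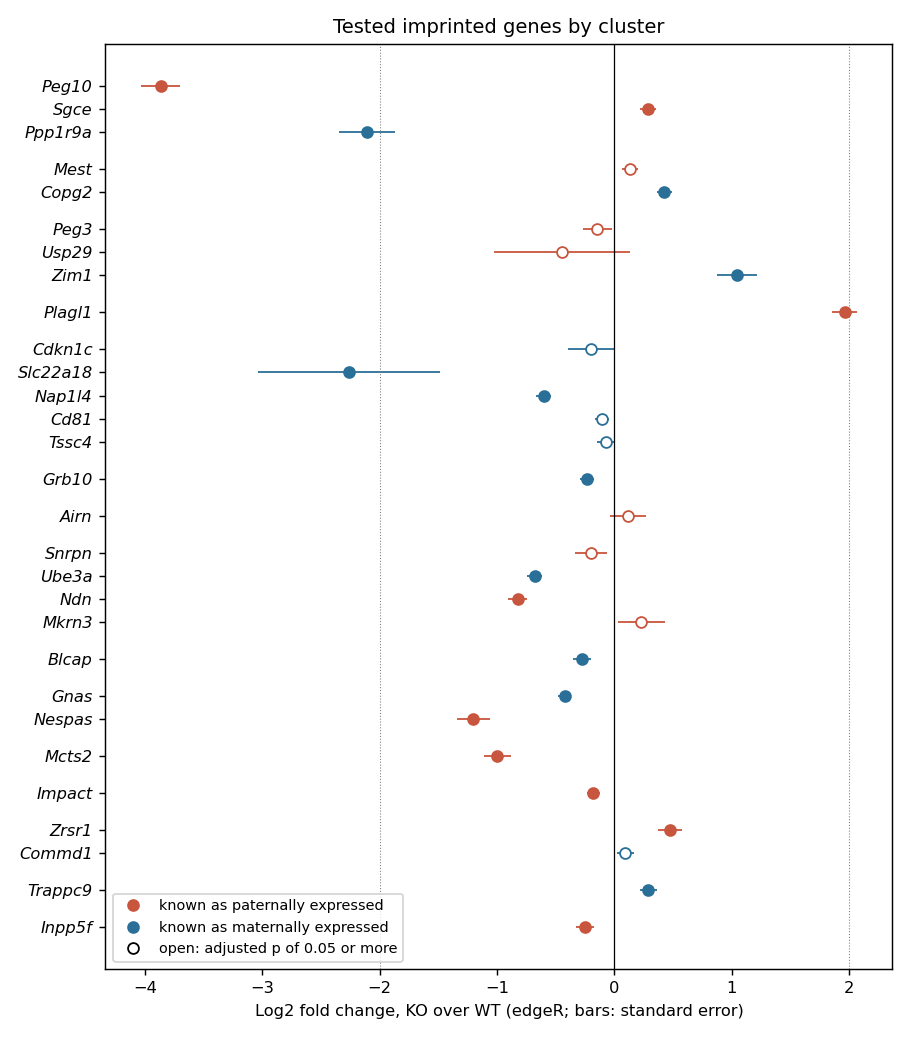
Log2 fold change (KO over WT, x axis) of the 29 tested imprinted genes, grouped by cluster down the page. Bars are standard errors from edgeR, filled points passed an adjusted p of 0.05, dotted lines mark a log2 fold of 2, and colours give the parental copy known to be expressed. *Peg10* lies lowest at -3.87 and *Plagl1* highest at 1.96, and both colours stand on both sides of 0.

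Genes of either parental copy were called in both directions. Of 15 tested genes of paternal expression, 3 were higher in KO cells and 6 lower, with a median log2 fold change of -0.18. Of 14 tested genes of maternal expression, 3 were higher and 7 lower, with a median of -0.22. The called shares were 60% and 71.4%, beside 66.8% of all genes. Each gene is placed by 1 known copy, although some are imprinted only in some tissues and the *Gnas* count sums several products. Genes read from the same copy within a cluster also parted, as the next cluster shows.

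*Peg10* and *Sgce* start 102 bases apart on opposite strands and are both known to be read from the paternal copy. *Peg10*, a gene derived from a retrotransposon of the sushi-ichi type and needed for the placenta, lies on the plus strand of chromosome 6 of mm9 from 4697306 to 4710514. It had 262 and 317 reads in the KO replicates, against 3550 and 4592 in the WT replicates. Both KO libraries were far below both WT libraries. At 6.60 ± 1.54 CPM in KO cells and 95.7 ± 23.2 CPM in WT cells (SD, n = 2 each), it was 14.6-fold higher in WT, with a log2 fold change of -3.87 ± 0.17 SE (adjusted p = 2.4e-10). In bulk RNA, fewer expressing cells and less RNA per cell cannot be told apart.

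*Sgce*, which encodes the membrane protein epsilon-sarcoglycan, runs on the minus strand from 4624350 to 4697204. It moved slightly the other way, with 2357 and 1996 reads in the KO replicates against 1804 and 1640 in the WT replicates. It averaged 49.0 ± 0.824 CPM in KO cells and 40.2 ± 0.174 CPM in WT cells (SD, n = 2 each), a log2 fold change of 0.29 ± 0.07 SE (adjusted p = 0.0024). The *Peg10* count was therefore 0.111 and 0.159 of that of *Sgce* in the KO replicates, against 1.97 and 2.80 in the WT replicates, a ratio that needs no scaling between libraries. Per kilobase of exon, *Peg10* stood at 0.991 CPM in KO cells and 14.4 CPM in WT cells, and *Sgce* at 15.9 CPM in KO cells and 13.02 CPM in WT cells, so the pair had similar levels in WT cells and differed widely in KO cells.

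Further along the same strand as *Peg10*, *Ppp1r9a* encodes neurabin, an actin-binding partner of protein phosphatase 1, and is known to be maternally expressed in some tissues. It had 37 and 24 reads in the KO replicates, against 128 and 126 in the WT replicates. The groups did not overlap, and the log2 fold change was -2.11 ± 0.24 SE (adjusted p = 3.3e-06). *Asb4*, a component of ubiquitin ligases, had 7 and 5 reads in the KO replicates and 7 and 2 in the WT replicates and was not tested.

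Other genes of this stretch differed as well. Between the third flanking gene on one side of the cluster and the third on the other, the table held 19 genes, and of the 14 tested, 5 were higher in KO cells and 7 lower, beside 34.3% and 32.5% of all genes. The following neighbours are named by position, after their values were seen. *Casd1*, a sialic acid acetyltransferase and the neighbour of *Sgce*, had 59.1 and 55.4 CPM in KO cells and 61.8 and 58.9 CPM in WT cells and did not pass (log2 fold change -0.08, adjusted p = 0.35).

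Beyond *Ppp1r9a* lie the paraoxonase genes. *Pon3* had 69 and 56 reads in the KO replicates, against 646 and 609 in the WT replicates (log2 fold change -3.38 ± 0.14 SE, adjusted p = 2.3e-10). *Pon2* had 1182 and 884 reads in the KO replicates, against 2673 and 2286 in the WT replicates (log2 fold change -1.32 ± 0.08 SE, adjusted p = 1.4e-08). Both were lower in KO cells, like *Peg10* and *Ppp1r9a*. Farther out on this side the values were mixed. *Slc25a13*, a mitochondrial carrier gene, was lower (log2 fold change -0.77) and *Pdk4* was higher (log2 fold change 1.99). *Dync1i1*, a dynein intermediate chain gene, was also higher, at 1712 and 1521 reads in the KO replicates against 50 and 60 in the WT replicates (log2 fold change 4.82). *Gng11*, a G protein gamma subunit on the other side of *Sgce*, had 943 and 699 reads in the KO replicates, against 91 and 77 in the WT replicates (log2 fold change 3.23). On that side *Samd9l* was higher too (log2 fold change 0.44), while *Col1a2* and *Ccdc132* were lower (log2 fold changes -0.36 and -0.20). *Bet1* did not pass (log2 fold change 0.09, adjusted p = 0.37). *Mbd4* itself lies on the same chromosome from 115790715 to 115803389, far from this region.

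**Figure D2:**
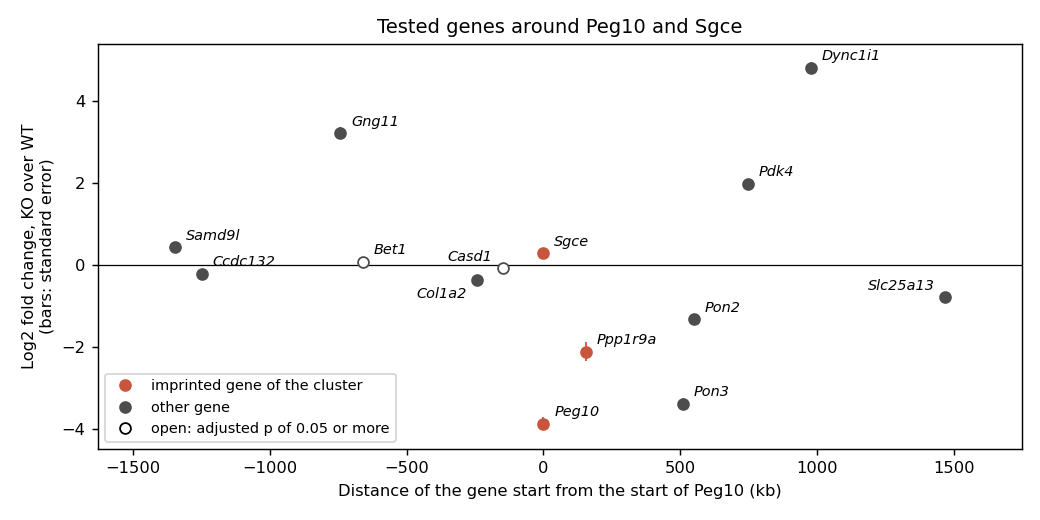
Log2 fold change (KO over WT, y axis) of the 14 tested genes between the outermost flanking genes of the *Peg10* cluster, by the distance of each gene start from it in kb. Bars are standard errors and open points had an adjusted p of 0.05 or more. *Peg10* at -3.87 and *Sgce* at 0.29 share 1 position, *Gng11* at 3.23 lies on the *Sgce* side, and *Pon3* at -3.38 and *Dync1i1* at 4.82 on the other.

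*Plagl1* (*Zac1*), a zinc finger transcription factor that restrains proliferation and regulates other imprinted genes, gave the largest increase among the tested genes of the set. It lies on the plus strand of chromosome 10 of mm9 from 12810497 to 12851500 and is known to be paternally expressed. It had 4402 and 4100 reads in the KO replicates, against 957 and 1150 in the WT replicates. The genotypes were well apart, at 96.0 ± 4.85 CPM in KO cells and 24.7 ± 4.74 CPM in WT cells (SD, n = 2 each), 3.89-fold higher in KO cells. The log2 fold change was 1.96 ± 0.10 SE (adjusted p = 1.9e-09).

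Of the 6 nearest genes around *Plagl1*, 5 were tested and 3 passed, beside 66.8% of all genes. *Phactr2*, a regulator of protein phosphatase 1 and actin, had 29.9 and 29.6 CPM in KO cells, against 8.44 and 11.4 CPM in WT cells (log2 fold change 1.59). *Stx11*, a syntaxin of immune cell secretion, had 29.1 and 30.5 CPM in KO cells, against 13.4 and 14.4 CPM in WT cells (log2 fold change 1.10). *Ltv1*, a ribosome assembly factor, fell by 0.74 on the log2 scale. *Sf3b5*, a splicing factor gene (log2 fold change 0.16, adjusted p = 0.079), and *B230208H11Rik* (log2 fold change 0.22, adjusted p = 0.46) did not pass, and *Fam164b* was not tested. These neighbours were named after their values were seen.

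In the *Peg3* cluster, the paternally expressed zinc finger gene *Peg3* and the maternally expressed zinc finger gene *Zim1* behaved differently. *Peg3*, on chromosome 7 of mm9 (6656603 to 6683132, minus strand), had 751 and 774 CPM in KO cells, against 682 and 1005 CPM in WT cells. The KO libraries lay between the WT libraries, and *Peg3* did not pass the test (log2 fold change -0.15 ± 0.12 SE, adjusted p = 0.32). Its value rested on which WT library was used: it was -0.40 without WT replicate 1 (adjusted p = 1.1e-09) and 0.13 without WT replicate 2.

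*Zim1*, on the same strand from 6628154 to 6649161, had 1060 and 917 reads in the KO replicates, against 361 and 559 in the WT replicates. It was higher in both KO replicates, at 22.3 ± 0.039 CPM, against 10.9 ± 3.95 CPM in WT cells (SD, n = 2 each). The log2 fold change was 1.04 ± 0.17 SE (adjusted p = 9.4e-05). It ranged from 0.70 without WT replicate 1 to 1.43 without WT replicate 2. Counted against *Peg3* in the same library, *Zim1* was 2.97% and 2.87% in the KO replicates and 1.18% and 1.36% in the WT replicates. This share varied less between the WT libraries than either gene did alone. *Usp29* encodes a deubiquitinase, and RefSeq places a start of it beside *Peg3*, but the gene model counted here spans only 6913871 to 6916480 of mm9, away from that start. It had 17 and 6 reads in the KO replicates and 8 and 22 in the WT replicates, which is too few to place it (log2 fold change -0.45 ± 0.58 SE, adjusted p = 0.52).

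**Figure D3:**
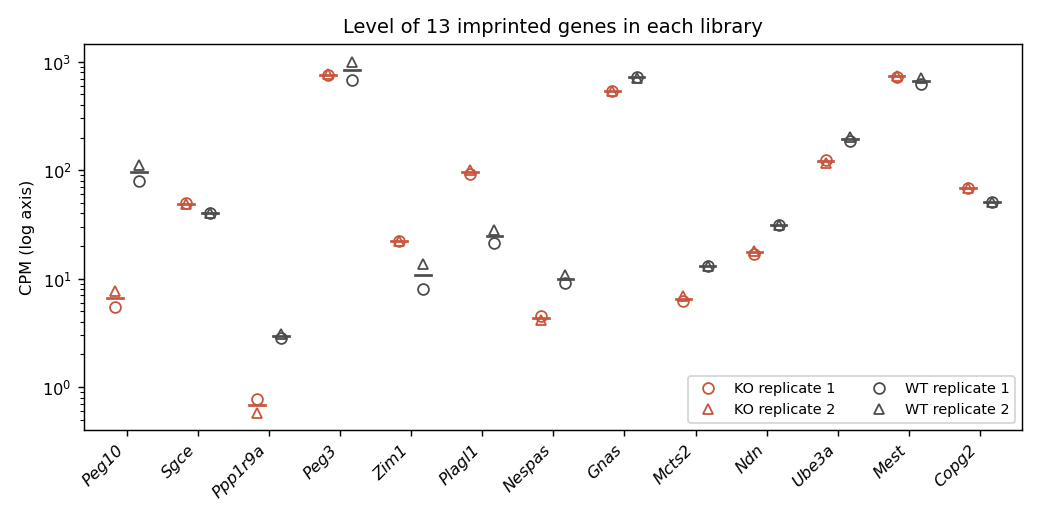
CPM (log axis) of 13 imprinted genes in each library, KO left of WT, with a horizontal line at the mean of a genotype. *Peg10* and *Ppp1r9a* lie lower in KO cells and *Plagl1* and *Zim1* higher, while the KO libraries of *Peg3*, at 751 and 774 CPM, lie between its WT libraries at 682 and 1005 CPM.

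At *Gnas*, both measured genes were lower in KO cells. *Gnas* encodes the stimulatory G protein alpha subunit and several alternative products with their own promoters, all summed here in 1 count, on the plus strand of chromosome 2 of mm9 from 174109821 to 174172245. It had 533 and 539 CPM in KO cells, against 725 and 714 CPM in WT cells (log2 fold change -0.42 ± 0.06 SE, adjusted p = 2.1e-05). *Nespas*, a paternally expressed antisense RNA that starts within *Gnas* and silences its *Nesp* promoter, had 214 and 171 reads in the KO replicates against 406 and 446 in the WT replicates. It fell further than *Gnas*, by 1.20 on the log2 scale (± 0.14 SE, adjusted p = 5.3e-06), and made up 0.845% and 0.769% of the *Gnas* count in KO cells, against 1.25% and 1.53% in WT cells.

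Exons of *Nespas* and *Gnas* overlap on opposite strands, as do those of *Mest* and *Copg2*, *Zrsr1* and *Commd1*, *Cd81* and *R74862*, and *Tssc4* and *Trpm5*. The libraries kept the strand, but the strand setting used in counting was not found in the sources, so the split of reads within these pairs is uncertain. Beside *Gnas*, the aminopeptidase gene *Npepl1* had 5 and 19 reads in the KO replicates, against 1878 and 1618 in the WT replicates, with a log2 fold change of -7.22 ± 0.22 SE (adjusted p = 8.9e-12).

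*Mcts2* is a retrogene inside an intron of *H13*, a signal peptide peptidase, and is paternally expressed. It had 297 and 282 reads in the KO replicates, against 583 and 536 in the WT replicates. The KO level was 0.501 of the WT level, at 6.54 ± 0.419 CPM against 13.1 ± 0.047 CPM in WT cells (SD, n = 2 each), with a log2 fold change of -0.997 ± 0.12 SE (adjusted p = 4.5e-06). Its host was lower as well, with 146 and 157 CPM in KO cells and 203 and 206 CPM in WT cells for *H13* (log2 fold change -0.43). The *Mcts2* count was 4.27% and 4.36% of that of *H13* in the KO replicates, against 6.41% and 6.35% in the WT replicates. *Mcts2* is a copy of *Mcts1*, and *Zrsr1* of *Zrsr2*, and how reads shared by such copies were counted was not tested.

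The *Snrpn* cluster on chromosome 7 has the Prader-Willi and Angelman region as its human counterpart. In it 2 of 4 tested genes fell, beside 32.5% of all genes called lower, and the other 2 did not pass. *Ube3a*, a ubiquitin ligase that is maternally expressed in neurons, had 125 and 117 CPM in KO cells, against 187 and 201 CPM in WT cells (log2 fold change -0.68 ± 0.06 SE, adjusted p = 5.0e-07). *Ndn*, the paternally expressed growth suppressor necdin, averaged 17.6 ± 0.809 CPM in KO cells and 31.1 ± 0.152 CPM in WT cells (SD, n = 2 each; log2 fold change -0.83 ± 0.08 SE, adjusted p = 7.9e-07). Which parental copy these reads came from cannot be told. *Snrpn*, a splicing protein gene, had 283 and 253 reads in the KO replicates and 285 and 309 in the WT replicates (log2 fold change -0.20, adjusted p = 0.22). *Mkrn3*, a zinc finger ubiquitin ligase gene, had 104 and 105 reads in the KO replicates and 95 and 78 in the WT replicates (log2 fold change 0.23, adjusted p = 0.33).

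Of the 8 genes of the *Kcnq1* cluster found in the table, 5 were tested. Of these, 2 were lower in KO cells and none was higher, beside 32.5% and 34.3% of all genes. *Nap1l4*, a histone chaperone, had 87.8 and 84.0 CPM in KO cells, against 128 and 133 CPM in WT cells (log2 fold change -0.60 ± 0.06 SE, adjusted p = 1.0e-06). *Slc22a18*, a transporter of organic cations, had 5 and 0 reads in the KO replicates, against 13 and 11 in the WT replicates (log2 fold change -2.26 ± 0.78 SE, adjusted p = 0.020). With so few reads its call was lost in DESeq2 (adjusted p = 0.098) and without KO replicate 2 (adjusted p = 0.19).

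*Cdkn1c*, the cyclin-dependent kinase inhibitor p57 and a maternally expressed brake on growth, did not pass. It had 165 and 169 reads in the KO replicates and 158 and 212 in the WT replicates (log2 fold change -0.20 ± 0.19 SE, adjusted p = 0.38). Its value was -0.46 without WT replicate 1 (adjusted p = 0.011) and 0.06 without WT replicate 2, the same dependence on the WT libraries as for *Peg3*. The tetraspanin gene *Cd81* had 216 and 226 CPM in KO cells and 245 and 233 CPM in WT cells (log2 fold change -0.11, adjusted p = 0.12), and *Tssc4*, a splicing factor gene, did not pass either (log2 fold change -0.07, adjusted p = 0.42).

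The rest of this cluster was at the edge of detection. *Ascl2*, a transcription factor of the trophoblast, had 7 and 6 reads in the KO replicates and 0 in both WT replicates, which is at least 4.19-fold higher against a floor of 3 reads set for the WT libraries together, a limit for counting error only. The potassium channel gene *Kcnq1* had 0 counts in both KO replicates and 1 and 0 in the WT replicates. *Phlda2*, a maternally expressed inhibitor of placental growth, had 1 and 0 reads in the KO replicates and 4 and 2 in the WT replicates. In the fit without a filter on low counts, *Ascl2* passed (adjusted p = 0.0081), while *Kcnq1* (adjusted p = 0.60) and *Phlda2* (adjusted p = 0.30) did not.

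*Grb10*, a maternally expressed adaptor that dampens insulin and IGF receptor signalling, had the highest count of the set, on chromosome 11 of mm9 (11830511 to 11938686, minus strand). It had 1357 and 1358 CPM in KO cells, against 1579 and 1608 CPM in WT cells. The difference was small against its level, though the groups were apart (log2 fold change -0.23 ± 0.06 SE, adjusted p = 0.0037), and with library totals in place of TMM it did not pass (log2 fold change -0.083, adjusted p = 0.22). *Airn*, the paternally expressed noncoding RNA that silences *Igf2r*, had 264 and 236 reads in the KO replicates and 206 and 239 in the WT replicates and did not pass (log2 fold change 0.11, adjusted p = 0.54).

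*Mest*, a paternally expressed hydrolase gene and a marker of mesoderm, was among the most abundant of the set. It had 719 and 745 CPM in KO cells and 622 and 713 CPM in WT cells, and did not pass (log2 fold change 0.13 ± 0.07 SE, adjusted p = 0.11). It did pass with library totals (0.28, adjusted p = 0.0043), with upper quartile scaling (0.19, adjusted p = 0.031) and without WT replicate 2 (0.20, adjusted p = 0.0042). *Copg2*, a coat protein gene whose end overlaps that of *Mest*, had 68.7 and 68.0 CPM in KO cells, against 51.2 and 50.7 CPM in WT cells, and was higher in KO cells (log2 fold change 0.42 ± 0.06 SE, adjusted p = 6.0e-05). *Grb10*, *Peg3*, *Gnas* and *Mest* together made up 77.4% and 77.5% of the summed CPM of the set in the KO replicates and 76.5% and 77.6% in the WT replicates. Per kilobase of exon, *Mest* averaged 186 CPM in KO cells and 169.6 CPM in WT cells. *Grb10* averaged 148 CPM in KO cells and 174 CPM in WT cells. *Mest* lay above *Grb10* in both KO replicates, but the WT libraries disagreed on the order. *Mest* and *Grb10* were at 158 and 172 CPM in WT replicate 1, and at 181 and 175 CPM in WT replicate 2. On the same scale, *Peg3* was at 57.3 CPM in KO cells and 63.4 CPM in WT cells.

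The remaining loci changed little. *Zrsr1*, a paternally expressed splicing factor retrogene inside *Commd1*, was higher, with 15.6 and 15.0 CPM in KO cells against 10.7 and 11.4 CPM in WT cells (log2 fold change 0.48 ± 0.10 SE, adjusted p = 0.00097). Its host *Commd1*, a regulator of copper handling, had 40.5 and 38.6 CPM in KO cells and 36.3 and 38.0 CPM in WT cells and did not pass (log2 fold change 0.09, adjusted p = 0.29). The count of *Zrsr1* was thus 38.5% and 38.8% of that of *Commd1* in the KO replicates, against 29.4% and 29.9% in the WT replicates.

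*Trappc9*, a vesicle trafficking gene, had 49.5 and 52.1 CPM in KO cells, against 40.4 and 42.8 CPM in WT cells (log2 fold change 0.29, adjusted p = 0.0031). Small decreases were found for the phosphoinositide phosphatase gene *Inpp5f* (log2 fold change -0.25, adjusted p = 0.012) and for *Blcap*, a proliferation-related gene that hosts *Nnat* in an intron (log2 fold change -0.28, adjusted p = 0.0057). The translation regulator *Impact* was at 90.6 and 88.6 CPM in KO cells, against 101 and 102 CPM in WT cells (log2 fold change -0.18, adjusted p = 0.016). None of these 4 kept its call in every alternative: leaving out a KO library lost each of them at least once. *Rasgrf1*, a Ras exchange factor gene, had 5 and 4 reads in the KO replicates and 2 and 0 in the WT replicates, and the retrogene *Nap1l5* had 0 in both KO replicates and 2 and 1 in the WT replicates.

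For some imprinted genes the libraries of a genotype differed more than for most genes. WT replicate 2 lay above WT replicate 1 for 20 of the 29 tested genes, against 49.9% of all genes, and KO replicate 1 above KO replicate 2 for 13, against 50.6% of all genes. The log2 ratio of WT replicate 2 to WT replicate 1 was 0.76 for *Zim1*, and 0.378% of the 9520 genes with a mean of at least 10 CPM over the genotypes had a larger difference in size. It was 0.56 for *Peg3*, with 0.693% of these genes larger. For *Peg10* the ratio was 0.50 between the WT libraries and 0.48 between the KO libraries, both small beside the difference between genotypes. Of the 9520 genes, 0.945% differed more between the WT libraries. No such share is given for the KO libraries, where *Peg10* averaged 6.60 CPM, under the minimum of 10 CPM. *Usp29*, with few reads, had the widest WT ratio at 1.59, and *Plagl1* had 0.39 between the WT libraries and 0.10 between the KO libraries.

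**Figure D4:**
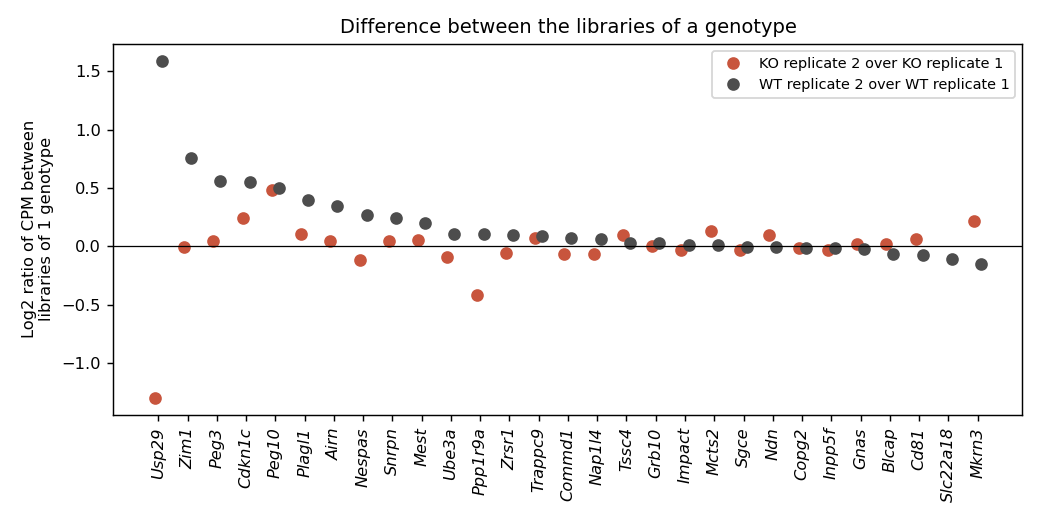
Log2 ratio of CPM between the 2 libraries of a genotype (y axis) for the tested imprinted genes, with KO replicate 2 over KO replicate 1 and WT replicate 2 over WT replicate 1. Genes are ordered by the WT ratio and *Slc22a18* has no KO point because KO replicate 2 had 0 counts. *Zim1*, *Peg3*, *Cdkn1c* and *Peg10* had WT ratios of 0.50 to 0.76, and *Grb10*, *Copg2* and *Sgce* lie near 0 in both genotypes.

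To see whether neighbouring genes changed at a similar rate, the 3 nearest genes of the table on each side of every cluster were taken, 102 in all. Only the 43 listed genes were left out. The neighbours therefore include other genes of imprinted loci, such as *Peg12* beside the *Snrpn* cluster and *Igf2as*, and are not a set free of imprinting. Of the 61 tested, 20 were higher in KO cells and 19 lower, a called share of 63.9% beside 66.8% of all genes. The stricter limit was passed by 5 of the 61, beside 8.94% of all genes, 5.79% higher and 3.15% lower. *Dync1i1*, *Fam13a*, *Igf2as* and *Fam161a* were higher and *Npepl1* was lower. *Fam13a*, beside *Nap1l5*, had 4.54 and 4.44 CPM in KO cells, against 0.402 and 0.586 CPM in WT cells (log2 fold change 3.19). *Igf2as*, an antisense RNA of *Igf2* that flanks the *Kcnq1* cluster, had 103 and 67 reads in the KO replicates, against 0 and 3 in the WT replicates (log2 fold change 5.65). *Fam161a*, a ciliary protein gene beside *Commd1*, had 7.53 and 7.98 CPM in KO cells, against 1.38 and 1.54 CPM in WT cells (log2 fold change 2.41).

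Of 25 genes known to set, protect or read imprints, 23 were in the table and 22 were tested. In KO cells 9 were higher and 6 lower, a called share of 68.2% beside 66.8% of all genes, and none passed the stricter limit. *Zfp57*, the zinc finger protein that recognises the hexamer shown above, had 2308 and 1954 reads in the KO replicates, against 1670 and 1637 in the WT replicates (log2 fold change 0.31 ± 0.07 SE, adjusted p = 0.0017). *Trim28*, its corepressor, fell by 0.38 on the log2 scale, with 13963 and 12668 reads in the KO replicates and 18091 and 15473 in the WT replicates. *Dnmt1*, the maintenance methyltransferase, was higher, with 21436 and 19303 reads in the KO replicates against 15730 and 13942 in the WT replicates (log2 fold change 0.41). *Uhrf1*, which recruits DNMT1 to newly copied DNA, did not pass (log2 fold change 0.08, adjusted p = 0.30).

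Cell type markers were read beside these genes. Of 12 fibroblast and mesenchyme markers, all tested, 1 was higher in KO cells and 6 were lower. This called share of 58.3% lies below the 66.8% of all genes. *Pdgfra*, *Pdgfrb*, *Thy1*, *Twist1* and *Twist2* did not pass. The 12 markers summed to 10138 to 10876 CPM in KO cells and 15342 to 16973 CPM in WT cells, most of it *Col1a1*, *Col1a2*, *Col3a1* and *Vim*. *Dcn* had 5 and 7 reads in the KO replicates against 1349 and 1123 in the WT replicates, and *Lum* 0 and 1 against 142 and 131 in the WT replicates. The marker that was higher was *Prrx1*, a mesenchymal homeobox gene, with 531 and 515 CPM in KO cells against 124 and 153 CPM in WT cells (log2 fold change 1.92), and *Vim*, *Col1a2* and *Pdgfra* were present in every library. Of 6 tested cartilage markers 5 were lower, with sums of 471 to 516 CPM in KO cells and 1242 to 1291 CPM in WT cells, and *Col9a1* had 0 counts in both KO replicates. Of 5 tested neural markers 2 were higher and 3 lower, with sums of 164 to 171 CPM in KO cells and 379 to 462 CPM in WT cells, most of it *Nes*, at 137 and 130 CPM in KO cells and 426 and 341 CPM in WT cells. The 2 higher ones, *Stmn2* (log2 fold change 3.38) and *Syt1* (log2 fold change 5.87), are genes of neurons. *Stmn2* had 1267 and 976 reads in the KO replicates against 112 and 95 in the WT replicates. *Tubb3*, also a gene of neurons, went the other way. It had 181 and 234 reads in the KO replicates against 1447 and 1402 in the WT replicates (log2 fold change -2.82). Of 3 tested skeletal muscle markers 2 were lower, with sums of 2.65 to 3.15 CPM in KO cells and 7.45 to 9.89 CPM in WT cells. The called share was 83.3% for cartilage, 100% for neural and 66.7% for skeletal muscle markers, beside 66.8% of all genes.

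Markers of other cell types had low sums. Epithelial markers summed to 3.08 to 3.43 CPM in KO cells and 0.938 to 1.39 CPM in WT cells, with 1 of 2 tested genes higher. That gene, *Cdh1*, made up most of the KO sum. Of the genes too low to test, *Krt8*, *Krt18*, *Krt14* and *Cldn4* had more reads in WT cells and *Krt5* in KO cells. Endothelial markers summed to 12.4 to 12.5 CPM in KO cells and 12.8 to 13.8 CPM in WT cells, most of it *Erg*, with none of 4 passing. Blood and macrophage markers summed to 6.00 to 6.21 CPM in KO cells and 3.44 to 4.20 CPM in WT cells. Of 3 tested, *Csf1r* was higher (log2 fold change 1.74), *Ptprc* lower and *Cd68* did not pass. *Ptprc* had 0 and 2 reads in the KO replicates against 40 and 21 in the WT replicates (log2 fold change -4.80). Trophoblast markers, of which 1 was tested and did not pass, summed to 0.821 to 0.873 CPM in KO cells and 0.537 to 0.603 CPM in WT cells. Called shares were 50% for epithelial, 0% for endothelial, 66.7% for blood and macrophage and 0% for trophoblast markers, beside 66.8% of all genes. The part of these marker differences in the values of the imprinted genes was not tested.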

How the data were processed

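Per the methods and the submitters' processing notes, the authors processed the RNA reads with CASAVA 1.8.2, aligned them to mm9 with TopHat2 and Bowtie, and counted them per Ensembl gene with HTSeq 0.5.4p3. The deposited table gives raw read counts for 23537 genes in 4 libraries, and only these counts were used. Its normalized counts and its columns from the authors' own DESeq comparison (ratios and p-values) were left out. Which strand setting was used in counting was not found in the sources. Gene positions and exon lengths come from an annotation of mm9, which held 23393 of the 23537 identifiers, and promoter sequences from RefSeq (GRCm38.p6).

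The test was run with edgeR 4.0.16 in R 4.3.3 (filterByExpr, TMM, quasi-likelihood test, genotype as the only term), with Benjamini-Hochberg adjustment over the 15538 genes that passed the filter. The script was tested on simulated data. Genes were called at an adjusted p of 0.05 and, more strictly, at 0.01 with a log2 fold of 2 or more in size. A standard error is the size of the log2 fold change over the root of the F value. Alternatives were RLE size factors, library totals, upper quartile scaling, no filter, at least 10 counts in every library, DESeq2 1.42.0, limma-voom (limma 3.58.1), the replicate number as a block, each library left out, and 5 flanking genes in place of 3. For a genotype with no read, 3 reads in its libraries together served as the floor.

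All 43 imprinted genes are named. Of the flanking genes and the genes that set or protect imprints, those past the stricter limit are named, with *Dnmt1*, *Uhrf1*, *Trim28* and *Zfp57* in any case. The genes, the lists and the rules were chosen with earlier results of these data known.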

Additional observations from a re-analysis of the deposited data

How the results depend on the processing

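Over the 29 tested genes and 12 alternatives, 316 of 346 fold changes kept their direction and their side of the threshold, 13 lost their call, 9 gained one and 8 turned in sign. Of the 19 genes called, 13 kept their call in every alternative. With library totals the median of all genes moved from 0.02 to 0.17 on the log2 scale, and values of *Grb10*, *Blcap*, *Impact* and *Inpp5f* lost their call while *Mest* and *Commd1* gained one, as *Mest* also did with upper quartile scaling and without WT replicate 2. Signs turned for genes without a call: with library totals *Peg3* was at 0.0015, *Cd81* at 0.039 and *Tssc4* at 0.074. Leaving out 1 library moved *Peg3* between -0.40 and 0.13, *Usp29* between -1.26 and 0.49, *Cdkn1c* between -0.46 and 0.062, and *Airn* between -0.054 and 0.26. The cause was not tested. Past the stricter limit, against 0 higher and 2 lower, 1 gene was higher with library totals and with upper quartile scaling (*Plagl1*, 2.11 and 2.02) and 1 with no filter (*Ascl2*, which the filter removes). With library totals 1 gene was lower, and with limma-voom and with no filter 3 were, *Slc22a18* (-2.96 and -2.29) being the added one. Leaving out 1 library gave 5 to 7 genes higher and 10 to 16 lower at an adjusted p of 0.05, 0 to 1 higher and 1 to 2 lower past the stricter limit, 36 to 41 flanking genes and 11 to 16 imprint regulators called. The strict call of *Ppp1r9a* was lost without KO replicate 2, and *Plagl1* gained one without KO replicate 1 and without WT replicate 2. With 5 genes on each side, 66 of 99 flanking genes tested were called, against 39 of 61.

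The replicate numbers are shared only as numbers: deviations of same-numbered libraries correlated at -0.029 over all genes tested. With the replicate block, 6 genes were higher and 13 lower, 0 and 3 past the stricter limit, with 39 flanking genes and 15 regulators called. In all 3 sets these were the same genes as without the block (19, 39 and 15 called in both). Because the correlation was -0.11 over the 9372 genes whose mean log2 CPM was above that of 10 CPM, crossed numbers were tried after seeing the data and gave 6 higher and 13 lower. With 2 libraries a genotype, depth limits *Usp29*, *Slc22a18* and the 6 untested genes.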
